A study of Mus musculus with 12 samples.

Results

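Chemokine ligands are small secreted proteins that draw leukocytes along a concentration gradient and retain them in tissue. They were taken as the rows of the deposited expression table whose gene name is a Ccl, Cxcl, Cx3cl or Xcl symbol. The rule found 41 of the 37750 rows of the table, holding 39 distinct symbols because Ccl21c has 3 rows on unplaced scaffolds. No ligand row joined several gene names, as 828 other rows of the table did. Of the 41 rows, 25 reached 1 FPKM in at least 4 of the 12 libraries and were tested, 10 were detected below that level, and 6 were listed at 0 in every library.

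The study compared liposarcoma with white adipose tissue of Ad/NICD mice, called Ad/N1ICD in the design text, on a 129 x C57BL/6 background, to follow the transformation of mature adipocytes to tumour. NICD is the intracellular domain of the receptor Notch. LPS stands for liposarcoma throughout, and 8 libraries came from tumours of Ad/NICD mice: LPS 2 and LPS 6 at 9 months, LPS 3 and LPS 8 at 10 months, LPS 1, LPS 5 and LPS 7 at 11 months and LPS 4 at 12 months. WAT stands for white adipose tissue, and 4 libraries came from Ad/NICD mice of 3 weeks. Both groups carry the transgene, no source used here names the promoter that drives it, and tumour, age and tissue cannot be told apart. The libraries are called biological replicates in the labels, and the p-values below measure the spread between them. All values are in FPKM, mapped fragments scaled by transcript length and by the size of the library.

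Chemokines signal through G protein-coupled receptors, and several ligands often share a receptor. Homeostatic ligands such as Ccl19, Ccl21 and Cxcl13 are made by stromal cells and lay out the T cell and B cell areas of lymphoid tissue. Inflammatory ligands such as Ccl2 and Cxcl10 are induced by cytokines, damage or interferon and bring in monocytes, neutrophils or activated T cells. In fat, macrophage recruitment through Ccl2 is a known feature of obesity.

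The sums of FPKM per library lay between 771665 and 996090, and between 12965 and 14248 rows reached 1 FPKM. LPS 5 stood apart with a median ratio of 0.806 to the typical library, against 0.988 to 1.05 in the other libraries. Fragment totals are not in the table. From the smallest values of 1442 long genes, a single fragment on a transcript of 800 bases was worth between 0.047 FPKM in WAT 1 and 0.119 FPKM in LPS 1, so values near 0.1 FPKM rest on few fragments. Adipoq, the adipocyte hormone adiponectin, lay between 0.0433 and 4.26 FPKM in LPS libraries and between 514 and 631 FPKM in WAT libraries. Rgs5, a pericyte marker, lay between 2070 and 4330 FPKM in LPS and between 69.2 and 88.4 FPKM in WAT.

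The groups differed in which ligands led. The ligand with the highest mean in LPS was Ccl8 at 97.2 FPKM, followed by Cxcl10 at 33.4, Cxcl9 at 32.5 and Ccl2 at 22.5 FPKM. In WAT the order was Ccl21a at 55.1 FPKM, Cxcl12 at 54.7, Ccl5 at 34.3 and Ccl6 at 30.8 FPKM. The 2 highest WAT means were closer together than the spread between WAT libraries, as were those of Cxcl10 and Cxcl9 in LPS. Tumours also differed among themselves in the leading ligand, which was Ccl8 in LPS 1, LPS 4, LPS 6 and LPS 8, Cxcl10 in LPS 2, Cxcl9 in LPS 3, Ccl2 in LPS 5 and Cxcl13 in LPS 7. In WAT, Cxcl12 led in WAT 1 and WAT 3, and Ccl21a in WAT 2 and WAT 4.

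Summed over all ligand rows, the level was 803, 177, 237, 115, 376, 394, 401 and 149 FPKM in LPS 1 to LPS 8, against 233, 361, 256 and 315 FPKM in WAT 1 to WAT 4. The groups overlapped in this sum, and the highest and the lowest library were both tumours. The composition of the sum differed more than its size. Lymphoid and homeostatic ligands made up 3.03 to 34.3% of the sum in LPS and 45.3 to 58.3% in WAT, with no overlap. LPS 7, at 34.3%, was the only tumour over 14.1%. Ligands that attract monocytes and macrophages made up 25.4 to 74.6% in LPS and 22.7 to 35.6% in WAT, and LPS 3 alone among the tumours lay within the WAT range. Interferon-induced ligands made up 4.39 to 56.3% in LPS and 3.47 to 5.92% in WAT, and LPS 8 at 4.39% lay within the WAT range.

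**Figure D1:**
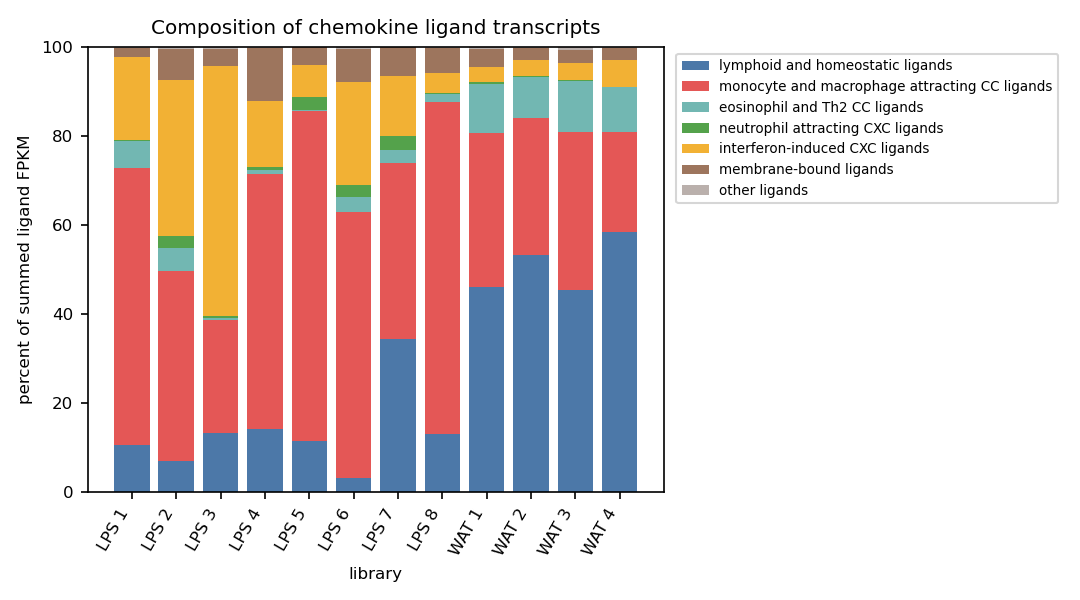
Share of the summed ligand FPKM (vertical axis, percent) held by each functional class in each library (horizontal axis), with LPS 1 to LPS 8 on the left and WAT 1 to WAT 4 on the right. Lymphoid and homeostatic ligands hold 45.3 to 58.3% in WAT and at most 34.3%, in LPS 7, among tumours, where classes that attract monocytes or are induced by interferon take most of the sum.

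Promoter sequences of 4 ligands are shown because 3 of them, Ccl8, Cxcl10 and Cxcl9, had the highest means in LPS, and Ccl22 had the largest ratio in favour of WAT. They are RefSeq windows of build GRCm38.p6, from 250 bases before to 50 bases after the transcript start, 300 bases each, written 5′ to 3′ on the gene's strand. Capitals mark matches to an interferon response motif, GAAANNGAA, or an NF-kappaB motif, GGANTTTCC, searched on both strands. Sites of the same factors that differ from these letters were neither marked nor counted.
Cxcl10, chr5:92348840-92349139, minus strand: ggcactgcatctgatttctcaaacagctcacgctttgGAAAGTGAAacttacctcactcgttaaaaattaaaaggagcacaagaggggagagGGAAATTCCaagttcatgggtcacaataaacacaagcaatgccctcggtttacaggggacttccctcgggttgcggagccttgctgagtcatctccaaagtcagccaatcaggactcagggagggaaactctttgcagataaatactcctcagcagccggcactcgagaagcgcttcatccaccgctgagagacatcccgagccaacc
Cxcl9, chr5:92328030-92328329, minus strand: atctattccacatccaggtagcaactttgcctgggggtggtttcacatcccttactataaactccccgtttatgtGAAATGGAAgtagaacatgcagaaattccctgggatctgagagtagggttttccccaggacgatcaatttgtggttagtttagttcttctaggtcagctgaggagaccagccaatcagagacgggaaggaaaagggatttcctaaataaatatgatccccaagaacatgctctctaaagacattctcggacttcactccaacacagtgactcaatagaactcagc
Ccl8, chr11:82114935-82115234, plus strand: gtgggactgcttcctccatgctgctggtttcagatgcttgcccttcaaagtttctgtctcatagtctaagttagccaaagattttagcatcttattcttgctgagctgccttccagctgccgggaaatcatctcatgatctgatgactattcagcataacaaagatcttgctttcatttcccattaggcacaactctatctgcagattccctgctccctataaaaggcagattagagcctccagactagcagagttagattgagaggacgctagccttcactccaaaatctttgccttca
Ccl22, chr8:94745434-94745733, plus strand: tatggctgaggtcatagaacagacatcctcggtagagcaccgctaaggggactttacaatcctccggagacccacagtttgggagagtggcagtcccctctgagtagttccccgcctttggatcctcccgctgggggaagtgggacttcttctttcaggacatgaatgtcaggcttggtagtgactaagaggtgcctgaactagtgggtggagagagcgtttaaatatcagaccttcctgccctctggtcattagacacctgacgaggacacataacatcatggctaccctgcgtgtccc

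Cxcl10 held GAAAGTGAA from -213 to -205 and, as the reverse strand of the NF-kappaB motif, GGAAATTCC from -158 to -150, counted from the transcript start. Cxcl9 held GAAATGGAA from -175 to -167. Neither motif was found in the windows of Ccl8 and Ccl22. Promoter windows were present for 27 of the 39 ligand symbols, as 33 windows. The interferon response motif was in 6 of these 33 windows, those of Ccl1, Ccl19, Ccl3, Cxcl10, Cxcl14 and Cxcl9, and in 8.56% of all 32851 windows. The NF-kappaB motif was in 4, those of Cxcl1, Cxcl10, Cxcl2 and Cxcl3, and in 1.25% of all windows. A further motif, TTCNNNGAA, the GAS element bound by STAT proteins, was in those of Ccl17 and Cxcl14 and in 8.3% of all windows; GAS matches overlapping the other motifs were counted separately. The windows with a match include ligands that rose, ligands that fell and ligands that were not called in LPS.

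Of the 25 ligands tested, 7 were higher in LPS and 7 were lower by limma on log2(FPKM + 1) at an adjusted p under 0.05. Over all 14821 rows tested, 18.9% were called higher and 27.0% lower, against 28.0% of ligands in each direction. Leaving out WAT 1, WAT 2 or WAT 3 lowered the ligands called higher to 4, also with the same rows tested. The median difference, LPS minus WAT, was -0.02 over ligands and -0.05 over all rows on the log2(FPKM + 1) scale. The median absolute difference was 1.70 over ligands and 0.48 over all rows. In 3 ligands every LPS library lay above every WAT library, where 11.8% of all rows did so, and in 6 ligands every LPS library lay below, where 20.9% of all rows did so. Ccl19, Ccl22 and Ccl24 passed the filter only through WAT, and Ccl3, Ccl4 and Cxcl1 only through LPS. Ccl21a, with 1 tumour at 1 FPKM or more, also depended on WAT to pass. The filter thus favoured a difference in these ligands, although Cxcl1 was not called. The counts over tested ligands are no support for a shift of the whole set. Differences on this scale understate the change of ligands below a few FPKM.

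**Figure D2:**
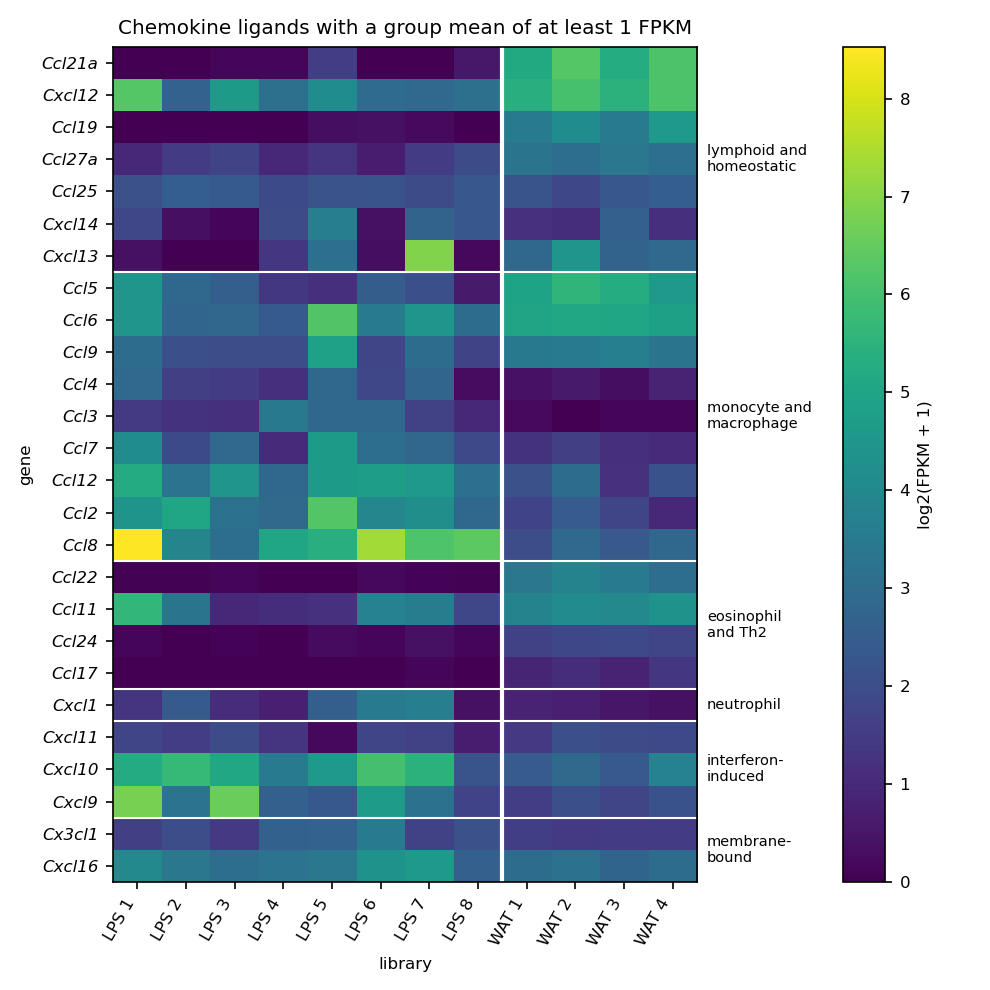
Level of the 26 ligands with a group mean of at least 1 FPKM, as log2(FPKM + 1) by colour, with libraries LPS 1 to LPS 8 left of WAT 1 to WAT 4 and ligands grouped by role down the page. Ccl21a, Ccl19 and Ccl22 are near 0 in tumours and high in all 4 WAT libraries, Ccl8 and Ccl2 are higher in every tumour than in any WAT library, and Cxcl13 is high in LPS 7.

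The lymphoid and homeostatic class held 14 rows, of which 7 were tested, 4 fell and none rose in LPS, where 27.0% of all rows fell and 18.9% rose. Of the 4, Ccl19 passed the filter only through WAT. Ccl21a, with 1 tumour at 1 FPKM or more, also depended on WAT to pass, so the count is no support for a fall of the class. Ccl21a, which guides T cells and dendritic cells through Ccr7, was at 0, 0, 0.122, 0.0745, 1.93, 0, 0 and 0.467 FPKM in LPS 1 to LPS 8, against 35.5, 77.3, 37.8 and 69.8 FPKM in WAT 1 to WAT 4. Every tumour lay below every WAT library, and LPS 5 was the highest tumour. Its mean was 0.324 ± 0.667 FPKM in LPS and 55.1 ± 21.5 FPKM in WAT (SD, n = 8 and 4), 170-fold lower in LPS. The difference was -5.43 ± 0.31 on the log2(FPKM + 1) scale (SE), with a limma adjusted p of 2.01e-08. Ccl21a lies at chr4:42772860-42773993 on the minus strand of GRCm38, and its near-identical copies Ccl21b and Ccl21c were listed at 0 in all libraries, so how the authors' counting shared reads among the copies is uncertain.

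Ccl19, the other Ccr7 ligand, at chr4:42754525-42756577, had its lowest, median and highest LPS values at 0, 0 and 0.308 FPKM, against 10.8, 16.8, 10.1 and 23.5 FPKM in WAT 1 to WAT 4. It was listed at 0 in 5 of the 8 tumours, and the groups did not overlap. Ccl19 was 173-fold lower in LPS by the ratio of means, with a difference of -3.84 ± 0.20 on the log2(FPKM + 1) scale (limma adjusted p = 8.12e-09). A gene on the opposite strand, 4930578G10Rik, overlaps both Ccl19 and Ccl21a. The libraries were made with a strand-specific kit, but no source used here says whether counting used strand.

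Cxcl12, at chr6:117168535-117181367, is the stromal ligand of Cxcr4 that holds haematopoietic cells in their niche. It had lowest, median and highest values of 5.39, 7.89 and 77.4 FPKM in LPS, against 40.8, 64.9, 43.5 and 69.6 FPKM in WAT 1 to WAT 4. LPS 1 exceeded every WAT library and the other tumours lay at or below 24.3 FPKM, under all WAT libraries. Cxcl12 fell by 2.01 ± 0.57 on the log2(FPKM + 1) scale, with a mean 2.86-fold lower in LPS (limma adjusted p = 0.0118). The call was lost by an exact permutation test over libraries (adjusted p = 0.0509).

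Ccl27a, a ligand of Ccr10 best known from skin, had lowest, median and highest values of 0.592, 1.59 and 2.98 FPKM in LPS, against 8.62, 7.46, 9.34 and 7.74 FPKM in WAT 1 to WAT 4. The groups did not overlap. Ccl27a fell by 1.90 ± 0.23 on the log2(FPKM + 1) scale in LPS (limma adjusted p = 1.61e-05). Its copy Ccl27b was listed at 0 throughout and Il11ra1 overlaps it on the other strand, so the share of reads that belongs to Ccl27a is uncertain.

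Cxcl13, which draws B cells into follicles through Cxcr5, was uneven among tumours. Its values were 0.307, 0, 0, 1.54, 7.74, 0.256, 120 and 0.133 FPKM in LPS 1 to LPS 8, against 6.14, 21.4, 5.55 and 6.56 FPKM in WAT 1 to WAT 4. LPS 7 was above every WAT library, LPS 5 lay within the WAT range, and the other 6 tumours lay below it. With all libraries, the mean was 16.3 ± 42.1 FPKM in LPS and 9.92 ± 7.68 FPKM in WAT, while the log2(FPKM + 1) difference was -1.70 ± 1.14, so the means and the log differences have opposite signs (limma adjusted p = 0.241, not called). Without LPS 7 the difference was -2.47 and it was called lower (limma adjusted p = 0.00431).

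Cxcl14 and Ccl25 completed the tested members of this class. Cxcl14, a homeostatic ligand of many epithelia, lay between 0.11 and 11.6 FPKM in LPS and between 1.16 and 5.17 FPKM in WAT, with a log2(FPKM + 1) difference of 0.14 ± 0.62 that was not called (limma adjusted p = 0.874). Ccl25, a thymus and gut ligand of Ccr9, was not called (limma adjusted p = 0.92) at 3.68 ± 0.676 FPKM in LPS and 3.78 ± 0.918 FPKM in WAT. Elavl1 overlaps Ccl25 on the other strand. The remaining members were too low to test: Ccl20 reached at most 0.217 FPKM, in WAT 2, and Ccl28 at most 0.377 FPKM, also in WAT 2. Ccl21b, the 3 Ccl21c rows and Ccl27b were the members listed at 0 throughout.

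Markers of lymphoid cells and of their venules moved with this class. Over all rows tested, 27.0% fell and 18.9% rose. The sum of the 4 markers of high endothelial venules, the vessels through which lymphocytes enter lymph nodes, lay between 0.0897 and 10.6 FPKM in LPS and between 82.5 and 334 FPKM in WAT, and 2 of its 3 tested markers fell. Glycam1, their defining marker, was at 0 in 3 tumours and at most 0.17 FPKM in LPS, against 77.5 to 320 FPKM in WAT. All 11 tested B cell marker rows fell, and their sum was 2.32 to 9.56 FPKM in LPS and 81.9 to 216 FPKM in WAT. Of 9 tested T cell markers 8 fell, with sums of 2.22 to 56.8 FPKM in LPS and 100 to 158 FPKM in WAT; Cd3e was at 0 in 1 tumour and at most 2.31 FPKM in LPS, against 7.62 to 12.2 FPKM in WAT. All lymphatic endothelium markers but Flt4 had lower means in LPS. Their sum was 6.53 to 19.6 FPKM in LPS and 21.4 to 29.4 FPKM in WAT. Of 4 tested Lyve1 and Pdpn fell, Flt4 rose and Reln was not called. Prox1, their defining marker, and Mmrn1 were too low to test. Prox1 averaged 0.219 FPKM in LPS and 0.911 FPKM in WAT, with 7 of 8 tumours below all of WAT. Mmrn1 averaged 0.18 FPKM in LPS and 1.02 FPKM in WAT. Most of the difference in the sum was Lyve1, at a mean of 1.81 FPKM in LPS and 14.5 FPKM in WAT, while Flt4 was at 6.58 FPKM in LPS and 3.14 FPKM in WAT. Fibroblast and progenitor markers, 7 of 7 of which fell, summed to 385 to 1800 FPKM in LPS and 1850 to 3310 FPKM in WAT. LPS 1, the tumour with the most Cxcl12, had the highest fibroblast sum of the tumours, 1630 of its 1800 FPKM from Col3a1. Dcn, the defining marker, was at 16.8 FPKM in LPS 1 and higher in LPS 5, LPS 7 and LPS 8, at 30.1, 23.4 and 17.2 FPKM. LPS 7, the tumour with 120 FPKM of Cxcl13, had the highest T cell sum of the tumours, 48.2 of its 56.8 FPKM from Cd4, and the highest venule sum, 10.3 of its 10.6 FPKM from Madcam1, but a B cell sum of 7.58 FPKM. These values come from whole tissue, in which fewer cells of a type and less RNA per cell cannot be told apart, and the part of these cells in the ligand differences was not tested.

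**Figure D3:**
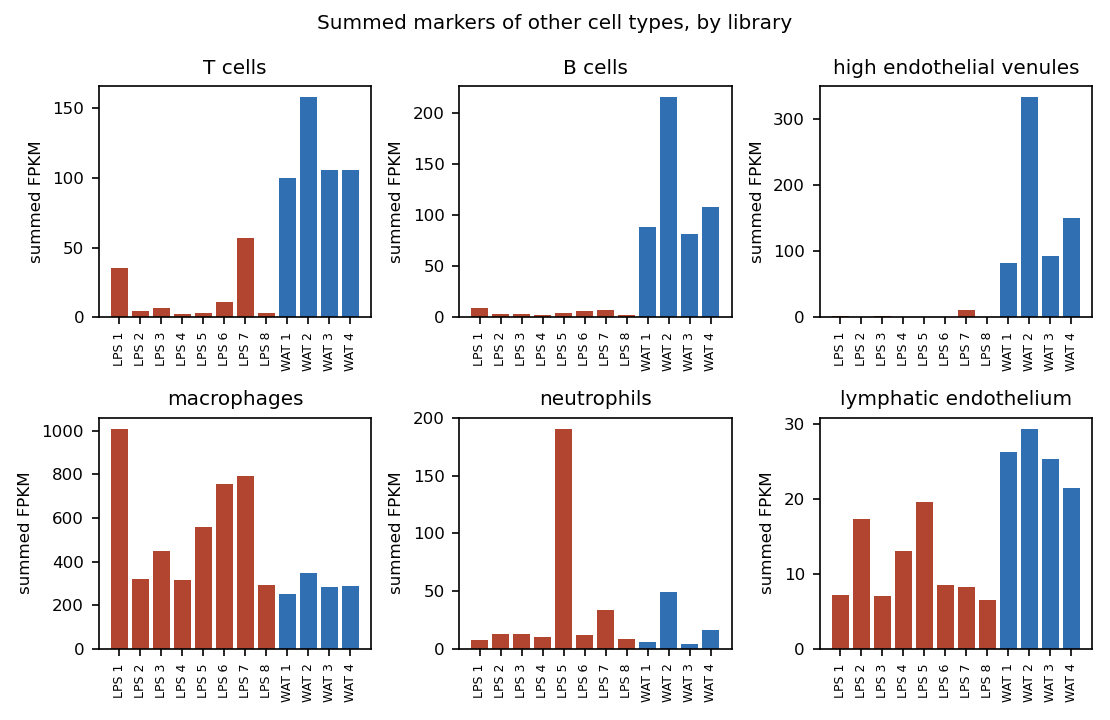
Summed FPKM of 6 marker lists (vertical axes, linear from 0) as 1 bar per library, LPS 1 to LPS 8 left of WAT 1 to WAT 4. B cell and venule sums do not overlap between groups, at most 9.56 and 10.6 FPKM in LPS against at least 81.9 and 82.5 FPKM in WAT, and the highest neutrophil sum, 191 FPKM, is in LPS 5.

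Among the CC ligands that attract monocytes and macrophages, most were called higher in LPS. All 9 rows were tested, of which 6 rose, 1 fell and 2 were not called, where 18.9% of all rows rose and 27.0% fell, with a median log2(FPKM + 1) difference of 1.54. Of the 6 that rose, Ccl3 and Ccl4 passed the filter only through LPS, and the calls of Ccl4 and Ccl7 were lost when some single libraries were left out. The count is thus no support for a rise of the class. All 9 ligands lie on chromosome 11. Ccl2, Ccl7, Ccl12 and Ccl8, which rose, are neighbours there, with Ccl11, an eosinophil ligand that was not called, among them. Ccl3 and Ccl4, which rose, neighbour Ccl5, which fell, and Ccl6 and Ccl9, which were not called.

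Ccl2, or MCP-1, the main ligand of Ccr2 and the best known recruiter of monocytes to fat, lies at chr11:82035571-82037453 on the plus strand. Its values were 20.3, 31.6, 8.2, 6.68, 74.8, 14.3, 17.6 and 6.43 FPKM in LPS 1 to LPS 8, against 2.26, 4.48, 2.43 and 0.978 FPKM in WAT 1 to WAT 4. Every tumour lay above every WAT library, and LPS 5 was highest. Ccl2 averaged 22.5 ± 22.8 FPKM in LPS and 2.54 ± 1.45 FPKM in WAT, 8.87-fold higher in LPS, with a difference of 2.38 ± 0.56 on the log2(FPKM + 1) scale (limma adjusted p = 0.00353).

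Ccl8, or MCP-2, at chr11:82115185-82116799, is related to Ccl2 and in the mouse also acts on Ccr8. It was at 368, 13.7, 7.49, 32.0, 39.4, 162, 71.9 and 82.9 FPKM in LPS 1 to LPS 8, against 3.04, 6.47, 4.16 and 6.15 FPKM in WAT 1 to WAT 4. The groups did not overlap, although LPS 3 at 7.49 FPKM was close to WAT 2. Ccl8 had the largest rise of any ligand on the log2(FPKM + 1) scale, 3.19 ± 0.83, with means of 97.2 ± 120 FPKM in LPS and 4.96 ± 1.64 FPKM in WAT (limma adjusted p = 0.00691). The tumours spanned from 7.49 to 368 FPKM, a spread wider than that of any other monocyte ligand.

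Ccl12, or MCP-5, and Ccl7, or MCP-3, complete this group of Ccr2 ligands. Ccl12 had lowest, median and highest values of 6.13, 22.2 and 36.6 FPKM in LPS, against 3.36, 6.99, 1.32 and 3.47 FPKM in WAT 1 to WAT 4, and LPS 4 lay below WAT 2. Ccl12 rose by 1.99 ± 0.47 on the log2(FPKM + 1) scale (limma adjusted p = 0.00384). Ccl7 had lowest, median and highest values of 1.02, 6.29 and 24.3 FPKM in LPS, against 1.39, 2.05, 1.29 and 1.00 FPKM in WAT 1 to WAT 4, and LPS 4 lay within the WAT range. Ccl7 rose by 1.54 ± 0.56 (limma adjusted p = 0.0390), a call that was lost when LPS 1, LPS 3, LPS 6, LPS 7 or any 1 WAT library was left out, with adjusted p-values between 0.0527 and 0.0993. LPS 5 was the highest tumour for both Ccl2 and Ccl7, and LPS 1 for Ccl8 and Ccl12.

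Ccl3 and Ccl4, the macrophage inflammatory proteins, were low but rose. Ccl3 was at 1.76, 1.39, 1.23, 9.8, 6.37, 6.45, 2.2 and 0.941 FPKM in LPS 1 to LPS 8, against 0.162, 0, 0.0914 and 0.0828 FPKM in WAT 1 to WAT 4. The groups did not overlap, and the WAT values rest on few fragments or none. Ccl3 rose by 1.85 ± 0.44 on the log2(FPKM + 1) scale (limma adjusted p = 0.00417). Ccl4 had lowest, median and highest values of 0.216, 2.26 and 6.54 FPKM in LPS, against 0.336, 0.548, 0.232 and 0.758 FPKM in WAT 1 to WAT 4, with LPS 8 below all of WAT. Ccl4 rose by 1.32 ± 0.44 (limma adjusted p = 0.0258), a call lost when WAT 1, WAT 2 or WAT 3 was left out, with adjusted p-values between 0.0538 and 0.0749.

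Ccl5, or RANTES, at chr11:83525778-83530518 on the minus strand, is made in large part by activated T cells and natural killer cells and lies near Ccl3 and Ccl4. Its direction was the reverse of theirs. Ccl5 was at 20.8, 6.31, 5.01, 1.61, 1.2, 4.72, 3.23 and 0.539 FPKM in LPS 1 to LPS 8, against 29.6, 47.3, 37.6 and 22.9 FPKM in WAT 1 to WAT 4. Every tumour lay below every WAT library, with LPS 1 the nearest at 20.8 FPKM. Ccl5 fell by 2.89 ± 0.56 on the log2(FPKM + 1) scale, and its mean was 6.32-fold lower in LPS (limma adjusted p = 0.000992). LPS 1 was also the tumour with the most Cd8a, at 4.17 FPKM against 0.0434 to 1.52 FPKM in the other tumours and 6.56 to 10.9 FPKM in WAT.

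Ccl6 and Ccl9, mouse ligands of Ccr1 made by myeloid cells, were not called with all libraries. Ccl6 had lowest, median and highest values of 4.36, 8.86 and 73.0 FPKM in LPS, against 30.6, 33.0, 32.2 and 27.6 FPKM in WAT 1 to WAT 4. Ccl9 had lowest, median and highest values of 2.38, 3.18 and 28.2 FPKM in LPS, against 9.80, 10.2, 11.8 and 8.63 FPKM in WAT 1 to WAT 4. For both genes LPS 5 was above every WAT library and the other 7 tumours were below. The log2(FPKM + 1) differences were -1.27 ± 0.58 for Ccl6 and -0.89 ± 0.49 for Ccl9 (limma adjusted p = 0.0905 and 0.153), and without LPS 5 both were called lower at -1.63 and -1.22 (limma adjusted p = 0.0042 and 0.00242). With all 12 libraries and array quality weights, both were also called lower, at -1.54 and -1.19 (limma adjusted p = 0.00179 and 0.00244).

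Macrophage markers summed to 293 to 1010 FPKM in LPS and 250 to 348 FPKM in WAT. Of 10 tested 5 rose and 1 fell, where 18.9% of all rows rose and 27.0% fell. Adgre1, C1qa, C1qb, C1qc and Mertk rose, and Csf1r, Cd68, Mrc1 and Lyz2 were not called. Cd163 fell, at a mean of 2.13 FPKM in LPS and 10.8 FPKM in WAT, without overlap. The highest macrophage sum, 1010 FPKM, was in LPS 1, the tumour with the most Ccl8 and Ccl12. LPS 5, the tumour with the most Ccl2, Ccl7, Ccl6 and Ccl9, had a macrophage sum of 559 FPKM and the highest neutrophil sum, 191 FPKM, against 7.71 to 33.9 FPKM in the other tumours and 3.89 to 49.0 FPKM in WAT. Ly6g, the defining neutrophil marker, was at 0 in 7 tumours and in all WAT libraries and reached 0.299 FPKM in LPS 8. In LPS 5 it was at 0, and most of that sum was S100a8 at 101 FPKM and S100a9 at 57.7 FPKM, which other cells can also make. Csf3r, Retnlg, Mmp8 and Elane were also higher in LPS 5 than in any other library, at 12.1, 11.1, 6.79 and 0.47 FPKM. Mpo, Ngp and Camp were not, and each was highest in a WAT library. The part of these cells in the ligand levels was not tested.

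**Figure D4:**
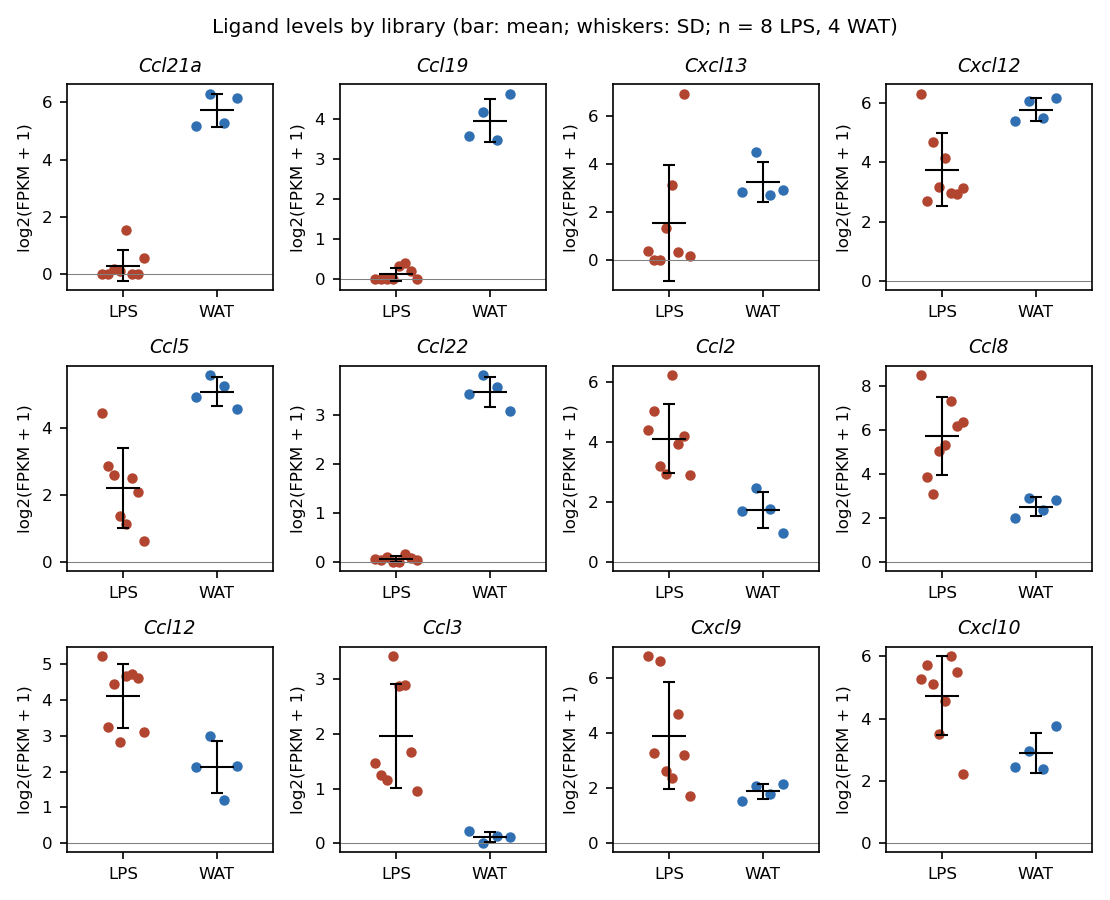
Levels of 12 ligands on the log2(FPKM + 1) scale (vertical axes), LPS left of WAT; each point is 1 library in replicate order from left to right, the bar is the mean and the whiskers are the SD (n = 8 and 4). Ccl2, Ccl8 and Ccl3 lie above WAT in every tumour and Ccl5 below it, and Cxcl13 is at 120 FPKM in LPS 7 and at most 7.74 FPKM in the other tumours.

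Ligands that attract eosinophils and type 2 helper T cells formed a class of 6 rows, of which 3 were tested and 2 fell, where 27.0% of all rows fell. Both that fell, Ccl22 and Ccl24, passed the filter only through WAT, so the count is no support for a change of the class. Ccl22, which is made by dendritic cells and macrophages and draws regulatory and type 2 helper T cells through Ccr4, lies at chr8:94745590-94751699. It had lowest, median and highest values of 0, 0.0355 and 0.124 FPKM in LPS, against 9.71, 13.0, 10.8 and 7.4 FPKM in WAT 1 to WAT 4. Ccl22 was close to undetected in every tumour and present in every WAT library, without overlap. Ccl22 was 223-fold lower in LPS by the ratio of means, 0.0458 ± 0.0424 FPKM in LPS and 10.2 ± 2.32 FPKM in WAT, with a difference of -3.40 ± 0.13 on the log2(FPKM + 1) scale (limma adjusted p = 5.93e-10).

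Ccl17, the other Ccr4 ligand and a neighbour of Ccl22 on chromosome 8, was too low to test. It was listed at 0 in 7 tumours and at 0.113 FPKM in LPS 7, against 0.864, 1.16, 0.766 and 1.52 FPKM in WAT 1 to WAT 4, again with no overlap. Cx3cl1 lies between Ccl22 and Ccl17 on the chromosome, and it was detected in every tumour. Markers of dendritic cells, a usual source of Ccl22 and Ccl17, went both ways. Of 5 tested 1 rose and 2 fell, where 18.9% of all rows rose and 27.0% fell, and Itgax and Batf3 were not called. The sum of the dendritic cell markers, 19.7 to 46.9 FPKM in LPS and 20 to 33.3 FPKM in WAT, was mostly Zbtb46. Zbtb46 rose, at a mean of 29.8 FPKM in LPS and 11.9 FPKM in WAT (limma adjusted p = 0.000582), and the part of dendritic cells in its level was not tested. Flt3 fell, at 0.298 FPKM in LPS and 2.99 FPKM in WAT (limma adjusted p = 2.99e-06), as did Siglech, a marker of plasmacytoid dendritic cells, at 0.394 FPKM in LPS and 3.85 FPKM in WAT (limma adjusted p = 6.98e-05). Flt3 passed the filter only through WAT, and Siglech, with 1 tumour at 1 FPKM or more, also depended on WAT to pass. Cd209a, too low to test, averaged 0.102 FPKM in LPS and 1.17 FPKM in WAT, and none of the 3 overlapped between groups. Their part in the Ccl22 and Ccl17 levels was not tested.

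The eotaxins Ccl24 and Ccl11 draw eosinophils through Ccr3. Ccl24 had lowest, median and highest values of 0, 0.0857 and 0.3 FPKM in LPS, against 2.17, 2.58, 2.72 and 2.40 FPKM in WAT 1 to WAT 4, without overlap. Ccl24 fell by 1.66 ± 0.11 on the log2(FPKM + 1) scale (limma adjusted p = 7.06e-08), and its mean was 24.8-fold lower in LPS. Ccl11 was at 48.7, 8.68, 0.959, 1.16, 1.31, 12.7, 11.0 and 2.55 FPKM in LPS 1 to LPS 8, against 13.1, 16.5, 15.0 and 20 FPKM in WAT 1 to WAT 4. LPS 1 exceeded every WAT library, while the other 7 tumours lay below them. Ccl11 was not called with all libraries, at -1.41 ± 0.76 (limma adjusted p = 0.149), and was called lower without LPS 1, at -1.84 (limma adjusted p = 0.02). Ccl1 was detected in 3 tumours, at 0.145 to 0.554 FPKM, and listed at 0 in WAT, and Ccl26 was listed at 0 everywhere.

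Neutrophil-attracting CXC ligands, which act on Cxcr2, were scarce in both groups. Of the 5 rows only Cxcl1 was tested, and it lay between 0.309 and 11.4 FPKM in LPS, against 0.308 to 0.743 FPKM in WAT. Cxcl1 differed by 1.36 ± 0.58 on the log2(FPKM + 1) scale and was not called (limma adjusted p = 0.0736), but was called higher without LPS 4 or LPS 8 (limma adjusted p = 0.0475 and 0.0311). LPS 5, the tumour with the highest neutrophil sum, had the most Cxcl2, Cxcl3, Cxcl5 and Cxcl15, at 2.43, 2.68, 0.651 and 0.127 FPKM. In the other tumours these 4 ligands stayed at or below 0.444 FPKM, and in WAT only Cxcl2 was detected, at up to 0.0675 FPKM.

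Interferon-induced CXC ligands bind Cxcr3 on activated T cells and natural killer cells. Cxcl10 was the 1 of 3 that rose, where 18.9% of all rows rose. Cxcl10, at chr5:92346638-92348889, was at 37.3, 51.9, 33.6, 10.4, 22.9, 63.6, 44.1 and 3.66 FPKM in LPS 1 to LPS 8, against 4.50, 6.79, 4.20 and 12.6 FPKM in WAT 1 to WAT 4. LPS 8 lay below all WAT libraries and LPS 4 below WAT 4, and the other 6 tumours lay above WAT. Cxcl10 rose by 1.85 ± 0.62 on the log2(FPKM + 1) scale, 4.76-fold by the ratio of means (limma adjusted p = 0.0259). The call was lost when WAT 1, WAT 2 or WAT 3 was left out (limma adjusted p = 0.0763, 0.0556 and 0.081) and by the exact permutation test (adjusted p = 0.0717).

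Cxcl9, whose promoter window held the interferon response motif shown above, was at 110, 8.54, 96.9, 5.13, 4.15, 24.7, 8.14 and 2.26 FPKM in LPS 1 to LPS 8, against 1.90, 3.21, 2.43 and 3.40 FPKM in WAT 1 to WAT 4. LPS 1 and LPS 3 carried most of it, LPS 8 lay within the WAT range, and the other tumours lay above it. Cxcl9 averaged 32.5 ± 44.5 FPKM in LPS and 2.73 ± 0.698 FPKM in WAT, with a difference of 2.02 ± 0.89 that was not called (limma adjusted p = 0.0812) and that was called without LPS 8, at 2.34 (limma adjusted p = 0.0407). Cxcl11, annotated as a polymorphic pseudogene in this build, lay between 0.141 and 2.85 FPKM in LPS and between 1.67 and 3.20 FPKM in WAT and was not called, at -0.48 ± 0.31 (limma adjusted p = 0.226). Art3 overlaps Cxcl10 and Cxcl11 on the other strand.

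The membrane-bound ligands, which can hold cells as well as draw them, were not called. Cxcl16, a scavenger receptor and ligand of Cxcr6, had lowest, median and highest values of 5.16, 9.38 and 23.6 FPKM in LPS, against 7.17, 8.02, 5.79 and 7.12 FPKM in WAT 1 to WAT 4, with LPS 8 below WAT. The Cxcl16 difference was 0.59 ± 0.32 on the log2(FPKM + 1) scale (limma adjusted p = 0.154). Cx3cl1, or fractalkine, lay between 1.69 and 10.1 FPKM in LPS and between 1.73 and 2.00 FPKM in WAT, with 7 of 8 tumours above all of WAT and a difference of 0.69 ± 0.33 (limma adjusted p = 0.105). Among the remaining ligands, Xcl1, made by natural killer and CD8 T cells, lay between 0 and 2.06 FPKM in LPS and between 0.372 and 0.99 FPKM in WAT, and Cxcl17 reached at most 0.0919 FPKM in LPS and 0.853 FPKM in WAT.

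The receptors were set beside their ligands. Of 21 receptor rows 15 were tested, of which 3 rose and 8 fell in LPS, where 18.9% of all rows rose and 27.0% fell. Of the 8 that fell, 5 passed the filter only through WAT: Ccr6, Ccr7, Cxcr5, Ackr2 and Ackr4. Ackr1, which also fell, depended on WAT to pass, with 1 tumour at 1 FPKM or more. The count is thus no support for a fall of the receptors as a set. Ccr1, a receptor of Ccl3 and Ccl5 on myeloid cells, had lowest, median and highest values of 2.08, 6.26 and 13.7 FPKM in LPS, against 1.22, 1.57, 1.69 and 1.31 FPKM in WAT 1 to WAT 4. Ccr1 rose by 1.51 on the log2(FPKM + 1) scale (limma adjusted p = 0.00457), and Cx3cr1, the receptor of Cx3cl1 on monocytes and macrophages, by 1.73 (limma adjusted p = 0.00193). Ccrl2, which binds chemerin without signalling, rose by 1.87 (limma adjusted p = 9.6e-05). All 3 genes were higher in every tumour than in any WAT library.

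Ccr7, the receptor of Ccl19 and Ccl21, had lowest, median and highest values of 0.193, 0.248 and 0.459 FPKM in LPS, against 17.3, 26.0, 16.9 and 14.9 FPKM in WAT 1 to WAT 4. The groups did not overlap, and Ccr7 fell by 3.92 ± 0.15 on the log2(FPKM + 1) scale (limma adjusted p = 3.64e-10). Cxcr5, the B cell receptor of Cxcl13, fell by 2.37 (limma adjusted p = 4.77e-07) and was at most 0.14 FPKM in LPS, against 2.95 to 8.40 FPKM in WAT; in LPS 7, where Cxcl13 reached 120 FPKM, Cxcr5 was at 0.115 FPKM. Ccr6, the Ccl20 receptor of B cells and some helper T cells, fell by 2.53 (limma adjusted p = 6.36e-07). The T cell and B cell marker sums given above moved with all 3 receptors, and their part was not tested.

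The 4 Ackr genes, which encode atypical receptors that take up chemokines without conventional signalling, all fell, where 27.0% of all rows fell. Ackr2 and Ackr4 passed the filter only through WAT and Ackr1 depended on WAT to pass, so the count is no support for a shared fall. Ackr1, which carries ligands across venules, fell by 2.27 (limma adjusted p = 0.000147), and its highest tumour value, 3.76 FPKM in LPS 7, lay below the 5.75 to 7.03 FPKM of WAT. Ackr4, which removes Ccl19, Ccl21 and Ccl25, fell by 1.83 (limma adjusted p = 9.12e-07). Ackr3, the scavenger of Cxcl12, fell by 1.77 (limma adjusted p = 0.000248), and Ackr2, which clears inflammatory CC ligands, by 1.25 (limma adjusted p = 4.63e-06). Cxcr6, the receptor of Cxcl16, fell by 0.86 (limma adjusted p = 0.0299), a call lost when WAT 2, WAT 3 or WAT 4 was left out, with adjusted p-values between 0.0515 and 0.0969. Cxcr4, Ccr2, Ccr10 and Cxcr3, the other 4 tested receptors, were not called, with log2(FPKM + 1) differences of -0.27, 0.36, 0.20 and -0.53 (limma adjusted p = 0.741, 0.545, 0.698 and 0.283); without LPS 1, the tumour with the most Cxcr3 at 5.28 FPKM, Cxcr3 was called lower at -0.76 (limma adjusted p = 0.026).

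**Figure D5:**
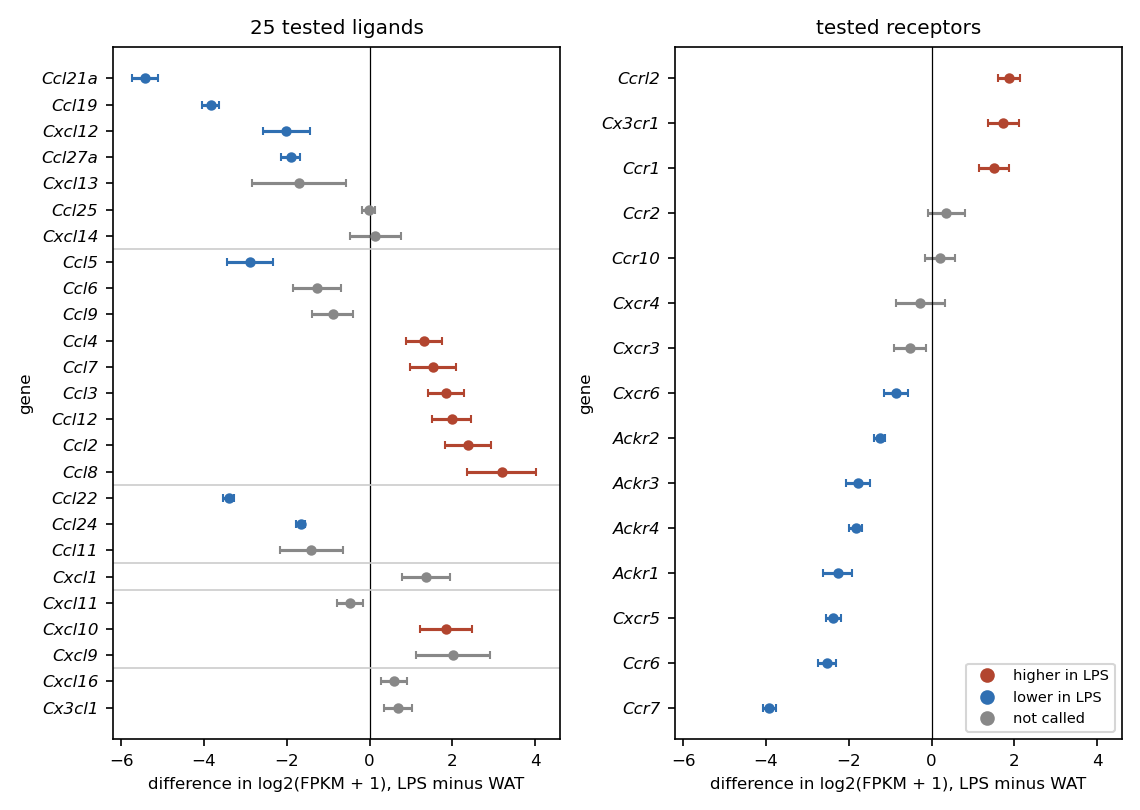
Difference LPS minus WAT on the log2(FPKM + 1) scale (horizontal axes) for the 25 tested ligands, grouped by role, and the 15 tested receptors; points are limma estimates, bars are standard errors, and colours give the call. Among ligands 7 are called higher, from Ccl4 at 1.32 to Ccl8 at 3.19, and 7 lower, from Ccl24 at -1.66 to Ccl21a at -5.43, while Ccr7 at -3.92 is the lowest receptor.

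Single tumours set several of these patterns. LPS 1 had the highest ligand sum, 803 FPKM, and the most Ccl8, Ccl12, Cxcl9, Cxcl12, Ccl11, Ccl5 and Ccl4 of the 8 tumours. LPS 5 had the most Ccl2, Ccl7, Ccl6, Ccl9, Cxcl14 and Ccl21a, and LPS 7 the most Cxcl13, Cxcl16 and Cxcl1. LPS 8, with 15 ligands at 1 FPKM or more against 18 to 23 in the other tumours, had the least Ccl2, Ccl3, Ccl4, Ccl5, Cxcl9, Cxcl10 and Cxcl16. LPS 8 and LPS 3 were of the same age, 10 months, and differed in Cxcl9, at 2.26 FPKM in LPS 8 and 96.9 FPKM in LPS 3.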

How the data were processed

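Strand-specific libraries were made from Trizol-extracted total RNA without its ribosomal fraction, per the labels' protocols. The submitters' processing notes give GRCm38 as the build and name TopHat2 2.1.0, Trimmomatic, Bowtie2, Cuffdiff 2.2.1 and Cufflinks 2.2.1, without their roles. The deposited table holds 1 FPKM value per gene locus and library, scaled by transcript length and library size by the authors; no source used here says whether a further scaling between libraries was applied. Genes at overlapping loci may share reads in such values, and depth is known only as the worth of 1 fragment, estimated as the 5th percentile of nonzero values of genes longer than 2000 bases; the deepest library had 2.54 times the shallowest. Their number and this depth limit the precision, and no counting interval was computed.

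Columns were matched to samples by the library names in the labels. A row was tested, two-sided, where 4 or more of the 12 libraries reached 1 FPKM, on log2(FPKM + 1) with limma 3.58.1 in R 4.3.3 (trend and robust empirical Bayes, no block), over all 12 libraries, and p-values were adjusted by Benjamini-Hochberg over all 14821 rows tested. The procedure was tested on simulated data. The exact permutation alternative enumerated the 495 assignments of the group labels, whose smallest p is 0.00202. Coordinates and gene types are from GENCODE on GRCm38. All ligands are accounted for; those with a group mean of at least 1 FPKM or called are named with values, and values of every library or their range are given where called or with a group mean of at least 5 FPKM. Among receptors, those called and the highest of the others are named. Ccr9, in a joined row, was left out, and 1 receptor is not reported here. The members, classes and marker lists were chosen with earlier results of these data known. Alternatives were other pseudocounts, filters and scalings, plain empirical Bayes, array quality weights, the permutation test, a replicate block and leaving out each library; rerunning the omissions on the same 14821 rows was chosen after seeing the data.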

Additional observations from a re-analysis of the deposited data

Results flagged for a closer look

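In 80 groups of 8 LPS or 4 WAT libraries, for ligands and receptors, 8 held a library whose log2(FPKM + 1) value was separated from the nearest other library by an unusually large part of the group's range, and in all 8 it was the highest. Chance gives about 1 such group in 20 if values are normally distributed. That rate need not hold for genes listed at 0 in several tumours, such as Ccl21a and Ackr1. Cxcl13 reached 120 FPKM in LPS 7, where the next tumour was at 7.74 FPKM, and 21.4 FPKM in WAT 2, where the next WAT library was at 6.56 FPKM. WAT 2 also had the highest B cell marker sum, 216 FPKM against 81.9 to 108 FPKM in the other WAT libraries. Its venule marker sum was 334 FPKM, against 82.5 to 150 FPKM in the others. The part of these cells in the Cxcl13 level of WAT 2 was not tested. Ccl9 was at 28.2 FPKM and Ccl21a at 1.93 FPKM in LPS 5. Ackr1 was at 3.76 FPKM in LPS 7, also the tumour with the most Cxcl13. Cxcr3 was at 5.28 FPKM and Cxcr6 at 7.30 FPKM in LPS 1, the tumour with the most Cd8a, Ccl5 and Cxcl9. Cxcl14 was at 5.17 FPKM in WAT 3, where the other WAT libraries lay between 1.16 and 1.30 FPKM.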

How the results depend on the processing

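No called ligand or receptor changed direction. For 10 of 25 ligands and 12 of 15 receptors the call was the same in every alternative that tested the gene; Ccl19, Ccl21a, Ccl22, Ccl24, Ccr6, Ccr7, Cxcr5, Ackr1, Ackr2 and Ackr4 were untested in some, where they failed the filter. Against 7 ligands called higher, array quality weights gave 11, the exact permutation test 4, and leaving out WAT 1 and WAT 4 together 2; single omissions gave 4 to 9, and 4 without WAT 1, WAT 2 or WAT 3. Against 7 called lower, single omissions gave 4 to 9, and leaving out WAT 1 and WAT 4 together 2. With a WAT library left out, genes detected only in WAT fail the filter; on the rows tested with all 12 libraries the range was 7 to 9, and 6 without WAT 1 and WAT 4. Receptors called lower, 8 with all libraries, numbered 2 to 9 under single omissions, 7 to 9 with rows kept, and 1 without WAT 1 and WAT 4 (7 with rows kept). All rows called higher, 2806, became 1402 without WAT 1 and WAT 4 (1462 with rows kept), and those called lower, 4007, became 2114 (2857). Without WAT 1 and WAT 4 the calls of Ccl2, Ccl7, Ccl8, Ccl4, Cxcl10 and Cxcl12 were lost, with rows kept, at adjusted p-values between 0.0664 and 0.214; fewer WAT libraries were then tested. Under quantile normalization 10 ligands were called higher, and the median difference over all rows was 0.104 in place of -0.0524.

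The labels number replicates in both groups without saying that a number pairs animals. Same-numbered libraries correlated at -0.017, 0.0175, 0.0921 and 0.0332 in their deviations from group means. Other pairs of an LPS and a WAT library lay between -0.102 and 0.0702. With so few libraries, these correlations cannot settle whether the numbers pair animals. A replicate block over replicates 1 to 4 called 4 ligands higher, where the same 8 libraries without the block gave 6. Levels below about 0.1 FPKM rest on few fragments, and their ratios between groups are imprecise.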

Other observations

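Pf4 and Ppbp are chemokines of platelets and megakaryocytes whose symbols fall outside the rule used for the ligands. Pf4, also made by some macrophages, averaged 32.6 ± 27.3 FPKM in LPS and 32.9 ± 6.89 FPKM in WAT (SD, n = 8 and 4), and was not called by limma, with a log2(FPKM + 1) difference of -0.33 (adjusted p = 0.602). LPS 5 had the most of both among tumours, 91.9 FPKM of Pf4 and 14.3 FPKM of Ppbp. In WAT, Pf4 lay between 23.6 and 39.9 FPKM and Ppbp between 0.0813 and 0.819 FPKM.

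Receptors too low to test included Ccr4 and Ccr8, which mark regulatory and type 2 helper T cells. Ccr4 lay between 0.0206 and 0.141 FPKM in LPS and between 0.634 and 1.06 FPKM in WAT, and Ccr8 between 0 and 0.232 FPKM in LPS and between 0.826 and 2.44 FPKM in WAT, without overlap for either gene. Cxcr2, the receptor of the neutrophil ligands, was at 4.66 FPKM in LPS 5 and at most 1.19 FPKM in the other tumours, against 0.258 to 1.96 FPKM in WAT. Ccr3, the eotaxin receptor, was highest in LPS 6 at 4.47 FPKM and lay between 0.513 and 1.6 FPKM in WAT. Xcr1, the Xcl1 receptor of cross-presenting dendritic cells, lay between 0.0729 and 0.824 FPKM in LPS and between 0.303 and 1.19 FPKM in WAT, and Cxcr1 between 0 and 0.367 FPKM in LPS and between 0 and 0.0832 FPKM in WAT.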
